A study of Drosophila melanogaster with 2 samples.

Results

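Single-gene promoter peaks are binding sites whose summit, the point of strongest signal, lies 1 to 500 bp upstream of the nearest annotated start site of a protein-coding gene, with no coding start site on the opposite strand within 500 bp. The list thresholded by the irreproducible discovery rate (IDR), a measure of how repeatable a peak's rank is between replicates, held 7521 peaks. Of these, 1753 (23.3%) met the rule. They lay before 1690 start sites of 1619 genes. The rule used summit position and annotation, and neither signal nor sequence. The study used ChIP-seq to map Lms, the homeodomain product of lateral muscles scarcer (lms, also CG13424), in whole embryos of Drosophila melanogaster aged 6 to 18 h. The embryos, of pooled sexes, came from 1 transgenic line in which the protein carries a C-terminal GFP tag, and an antibody against GFP was used for precipitation. The 2 biological replicates formed 1 group, and a separate age label did not match these hours. No sample of an untagged line or of another stage was analysed here, so binding that depends on the tag, the antibody or open chromatin cannot be told apart from binding by the protein. Whole embryos mix all tissues, and peaks carry no measure of expression, so no tissue marker could be checked.

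In Drosophila, promoters are often grouped by the sequences they carry. Many broadly active genes for growth and metabolism carry sites for DREF, whose element holds TATCGATA, or for M1BP, whose core is GGTCACAC, close to the start site. Many developmentally controlled genes carry a TATA box or an initiator at the start site, and GAGAG repeats recognised by GAGA factor (Trl). Lms belongs to the homeodomain family, whose members commonly recognise a TAATTA core, and is known for patterning lateral transverse body wall muscles.

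The sequences below show the promoter types found among the members. Each is from the release 6 reference genome (dm6), read 5′ to 3′ on the strand of the gene, and lies outside annotated exons. The first set holds 40 bases on each side of the summit, and capitals mark TATCGATA, which reads the same on both strands. The peaks before kibra (chr3R:14724333-14724413, minus strand), RpS10b (chrX:19597896-19597976, plus strand), CG31249 (chr3R:17687085-17687165, minus strand) and Lamp1 (chr2L:21573243-21573323, plus strand) had summits 112, 95, 54 and 106 bp upstream. kibra encodes a Hippo pathway protein, RpS10b a small ribosomal subunit protein and Lamp1 a lysosomal membrane protein.
kibra: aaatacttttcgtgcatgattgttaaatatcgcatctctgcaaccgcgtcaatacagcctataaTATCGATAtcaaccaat
RpS10b: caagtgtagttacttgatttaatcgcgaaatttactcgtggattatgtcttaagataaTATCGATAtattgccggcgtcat
CG31249: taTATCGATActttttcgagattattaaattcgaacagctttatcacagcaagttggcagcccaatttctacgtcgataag
Lamp1: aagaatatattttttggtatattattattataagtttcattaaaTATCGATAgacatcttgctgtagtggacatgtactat

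The second set shows the same window with GGTCACAC, or its reverse complement GTGTGACC, in capitals. It comes from peaks before Vha68-2 (chr2L:12974154-12974234, plus strand), a vacuolar ATPase subunit gene, CrebB (chrX:18370820-18370900, plus strand), a transcription factor gene, and Dpm3 (chr3R:13403246-13403326, minus strand).
Vha68-2: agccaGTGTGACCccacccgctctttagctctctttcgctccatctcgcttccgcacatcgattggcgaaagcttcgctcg
CrebB: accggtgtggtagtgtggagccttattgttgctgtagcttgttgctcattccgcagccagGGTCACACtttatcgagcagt
Dpm3: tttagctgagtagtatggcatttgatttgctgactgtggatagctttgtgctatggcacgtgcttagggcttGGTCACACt

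The third set shows high peaks with neither sequence, and capitals mark TAATTA where it occurs. The window before CG14100 (chr3L:19590583-19590663, minus strand) belonged to the highest member, that before CG18549 (chr3R:12449132-12449212, plus strand) held TAATTA, and that before Gapdh2 (chrX:15867939-15868019, plus strand), a glycolytic enzyme gene, did not.
CG14100: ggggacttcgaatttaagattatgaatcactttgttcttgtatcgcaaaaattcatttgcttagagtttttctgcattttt
CG18549: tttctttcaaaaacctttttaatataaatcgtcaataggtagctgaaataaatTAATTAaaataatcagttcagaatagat
Gapdh2: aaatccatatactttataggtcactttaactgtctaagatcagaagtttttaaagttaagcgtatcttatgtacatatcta

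The fourth set shows the 100 bases just before the start site, between summit and gene, at 3 high members whose summits lay over 200 bp upstream. Capitals mark GAGAG, which occurs at least 3 times in each. They are msi (chr3R:25516018-25516117, plus strand), encoding the RNA-binding protein Musashi, E23 (chr2L:3354830-3354929, minus strand), encoding an ABC transporter, and elav (chrX:523227-523326, minus strand), encoding a neuronal RNA-binding protein.
msi: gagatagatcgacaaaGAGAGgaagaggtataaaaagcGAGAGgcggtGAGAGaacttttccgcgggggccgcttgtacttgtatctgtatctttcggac
E23: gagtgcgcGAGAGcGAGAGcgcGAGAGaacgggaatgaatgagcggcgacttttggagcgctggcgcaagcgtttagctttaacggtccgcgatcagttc
elav: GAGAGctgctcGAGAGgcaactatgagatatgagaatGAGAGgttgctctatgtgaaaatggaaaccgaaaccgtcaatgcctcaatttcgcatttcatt

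Member summits covered the whole upstream range unevenly. Their median distance was 171 bp, with quartiles at 96 and 285 bp, and the same rule gave 173 bp among the 7521 highest peaks of replicate 1 and 166 bp among those of replicate 2. By ranges, 464 summits lay within 100 bp of the start site, 548 over 100 and up to 200 bp, 347 over 200 and up to 300 bp and 394 farther. At the edges of the rule, the nearest summits inside were 1 bp (CG18622) and 2 bp (CG2811) upstream, whereas those of RpL9 and CG1840 lay on the start site and were outside. The farthest were 499 bp (bark) and 498 bp (Cyp310a1), with CG6891 and t-cup at 501 bp outside. Fdh and wdb were kept with opposite start sites at 501 and 503 bp, and Orc2 and E(bx) were left out with one at 500 bp.

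Signal was lowest at the summits closest to genes. The authors' peak score, called signal here, has no stated scale and serves only for ranking inside 1 list. The median was 211 within 100 bp, 336 over 100 and up to 200 bp, 405 over 200 and up to 300 bp and 297 farther, against 290 over all members (range 135 to 10625) and 267 over all IDR peaks. Within 100 bp, 10.1% of members were among the 1880 highest of the IDR list (exact 95% interval 7.54 to 13.2%), against 43.8% over 200 and up to 300 bp (38.5 to 49.2%). The corresponding shares were 10.1 and 42.9% in the list of replicate 1, and 11.6 and 39.8% in that of replicate 2. These ranges were chosen after the positions had been seen, and all intervals cover counting of peaks only.

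**Figure D1:**
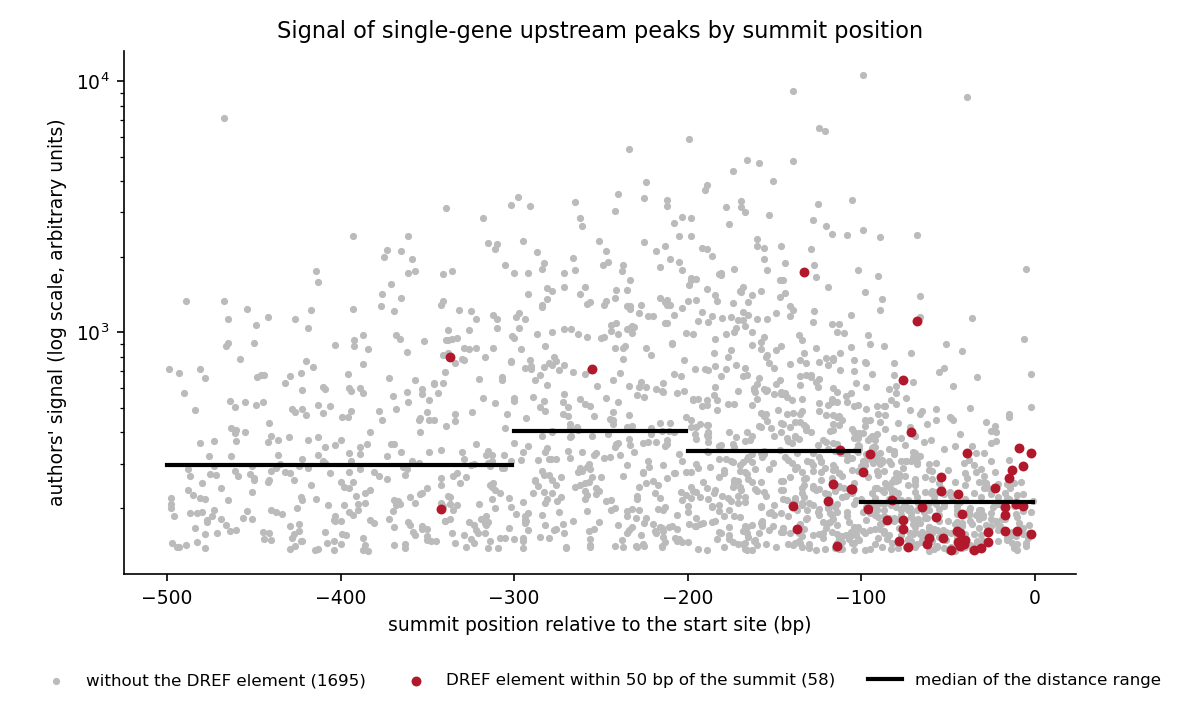
Each point is 1 of the 1753 members, with summit position relative to the start site (bp) across and the authors' signal (log scale) up; red points are the 58 with the DREF element within 50 bp of the summit, and black lines are medians of 4 distance ranges. The median is lowest, 211, in the range nearest to the start site, where most red points lie.

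The highest members were spread over several kinds of gene. The peak before CG14100 had a signal of 10625 with its summit 99 bp upstream, and ranked first in both replicates. mRpL41, a gene for the large subunit of mitochondrial ribosomes, followed with 9119 at 139 bp (rank 3 in replicate 1 and 2 in replicate 2). Ugalt, encoding a Golgi sugar nucleotide transporter, had 8685 at 39 bp (ranks 4 and 3). These 3 lay at the most upstream start site of the gene. By contrast, the Polycomb group gene ph-p had its peak of 7136 inside the gene, 467 bp before an internal start site (ranks 5 and 6). CG18549 (6489), Fkbp14 (6326), px (5893), CG1888 (5377), Gapdh2 (4875), CG1635 (4789), gish (4735), RluA-1 (4371), CG11357 (4015), msi (3963) and CG31145 (3867) completed the 15 highest. Fkbp14 encodes a peptidyl-prolyl isomerase, gish a casein kinase and RluA-1 a pseudouridine synthase. Of the 15, Ugalt was the only one under 99 bp, and ph-p the only one over 234 bp.

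The replicates placed the members alike, but the IDR list had selected for peaks that repeat between these same 2 replicates. The values below therefore describe the members and are not independent evidence of agreement. In the full lists of 30000 peaks, 98.9% of members had a summit within 150 bp in replicate 1 and 97.4% in replicate 2. Of the others, 20 members lacked a partner in replicate 1 and 45 in replicate 2, and the median signal of these 65 was 164. Across the 1688 members found in both lists, the ranks had a Spearman rho of 0.845, a value across peaks that shared 1 control alignment and are not independent replicates. Among the 7521 highest peaks of each replicate, 1391 members (79.3%) were matched in both, with a median of 22 bp between the replicates' summits. The share was 72.0% within 100 bp (exact 95% interval 67.7 to 76.0%) and 85.3% (81.1 to 88.9%) over 200 and up to 300 bp.

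Single-gene upstream peaks stood between the 2 other promoter classes in reproducibility and rank. Peaks at divergent promoters, with coding start sites on both strands within 500 bp of the summit, numbered 1205. A further 306 single-gene peaks lay 0 to 500 bp downstream of the start site. Of the divergent peaks 86.3% were matched in both replicates, 6.96 points above the members (Fisher's exact test, two-sided, adjusted p = 1.93e-06 over 8 comparisons). Of the downstream peaks 64.4% were matched, 14.97 points below the members (exact adjusted p = 9.78e-08). The 1880 highest peaks held 29.2% of members, 35.3% of divergent peaks (exact adjusted p = 0.000865) and 20.9% of downstream peaks (exact adjusted p = 0.00392). With the full replicate lists the matched share of members and divergent peaks differed by -0.139 points (members minus divergent) and the test no longer passed (exact adjusted p = 0.921). The difference in rank from divergent peaks was also lost with the 752 highest peaks (exact adjusted p = 0.701) and in replicate 1 alone (exact adjusted p = 0.111).

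Base composition changed sharply along these promoters. Around the start sites of members, mean GC fell to a minimum of 33.7% at 230 bp upstream and rose to 47.4% at the start site. In 5566 single-gene promoters without a peak nearby, the minimum was 37.7% at 190 bp upstream and the value at the start site 42.4%. Divergent promoters had a deeper and narrower minimum, 29.3% at 130 bp. The bases within 50 bp of the summit had a median GC of 40.6% for summits within 100 bp, and 28.7 to 29.7% in the 3 farther ranges.

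**Figure D2:**
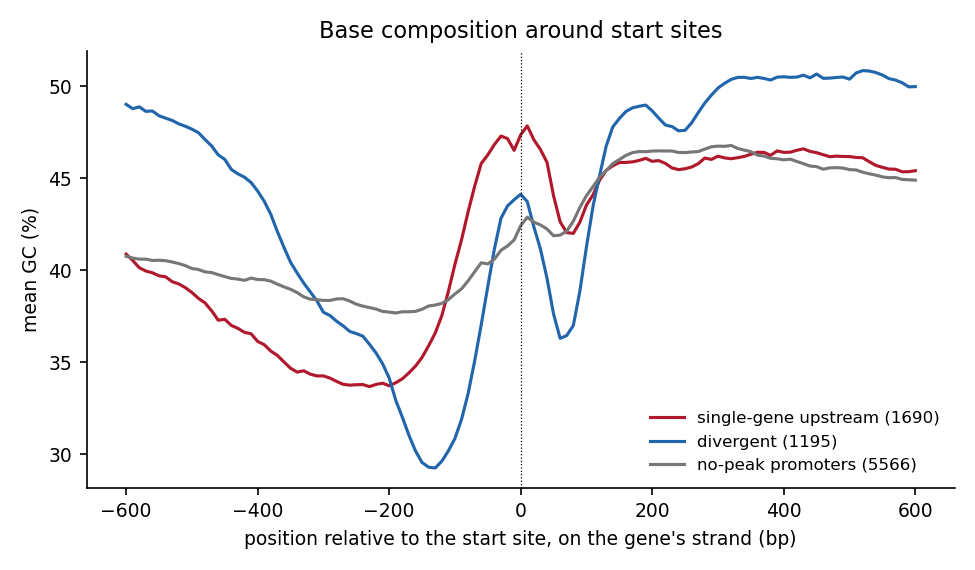
Mean GC (%) in 51 bp windows is plotted against position relative to the start site (bp, on the strand of the gene) for the start sites of members, of divergent peaks and of promoters without a peak. The members' line is lowest, 33.7%, at -230 bp and highest near the start site, where it exceeds both other lines.

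DREF and M1BP sequences were concentrated at the members closest to their genes. TATCGATA lay within 50 bp of the summit in 46 of 464 members within 100 bp (9.91%), in 1.64% over 100 and up to 200 bp, in 0.288% over 200 and up to 300 bp and in 0.508% farther. Windows of the same distance range in promoters without a peak held it in 1.83% in the nearest range (Fisher's exact test, two-sided, adjusted p = 1.47e-16 over 8 motifs). These same-distance windows had 1 fixed centre per range, 61, 146, 246 and 385 bp upstream from the nearest range to the farthest. Member summits varied within each range, so the windows were not matched peak by peak. GGTCACAC lay at 3.88% of summits within 100 bp, against 0.557% (exact adjusted p = 1.96e-08). Both sequences were also above the reference in the next range (exact adjusted p = 0.0255 and 0.00321), and neither passed the test beyond 200 bp. Over all members, 58 (3.31%) held TATCGATA, a median of 52.5 bp upstream of the start site, and 27 (1.54%) held GGTCACAC, a median of 49.5 bp upstream. GGTCACAC was read on the strand of the gene in 17 and on the other in 10. At fixed windows centred 171 bp upstream, TATAAA (23.5% against 16.7%) and runs of 6 A or T (26.4% against 22.5%) were also more frequent at member summits (exact adjusted p = 1.18e-09 and 0.00157), and CAGCTG and CAAGTG did not pass. With same-distance windows, TATAAA was less frequent than the reference at summits within 100 bp, 13.1% against 27.0% (exact adjusted p = 2.18e-11). All reference windows of that range were centred 61 bp upstream, and the part of window placement in this difference was not tested. Where only windows with GC from 25 to 35% were compared, none of the 8 motifs passed. In that band GGTCACAC lay in 2 of 713 members and 5 of 1823 promoters without a peak, a ratio of 1.02 (exact adjusted p = 1) beside 9.53 over all members. The ratio there was 2.73 for TATCGATA (exact adjusted p = 0.0598) beside 7.08 over all members, 0.959 for TATAAA (exact adjusted p = 0.730) and 0.877 for runs of A or T (exact adjusted p = 0.260). The band also changed the mix of distances. Summits within 100 bp, with a median GC of 40.6%, held 46 of the 58 members with TATCGATA and 18 of the 27 with GGTCACAC. Within 100 bp, against the windows centred 61 bp upstream, whose median GC was 39.6%, the ratios were 5.42 and 6.96. Composition and distance were not separated. Against downstream peaks none of the 8 motifs passed the exact test, with 1 of 8 below 0.05 before adjustment. A match describes letters and was not taken as a bound site.

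Members with these elements had low signals. The median signal was 199 in the 58 members with TATCGATA and 298 in the rest, and 8.62% against 29.9% were among the 1880 highest peaks. None of the 27 members with GGTCACAC was among them, against 29.7% of the rest. The summits with TATCGATA were also closer to genes, at a median of 54 bp against 176 bp, and the part of distance in the signal difference was not tested. The highest with TATCGATA were before CG1827 (1741, summit 133 bp upstream), the mannosyltransferase gene Alg3 (1107, 68 bp) and the heparan sulfate sulfotransferase gene Hs3st-A (796, 337 bp). The highest with GGTCACAC were before CG30414 (457), beta-PheRS (386), encoding a tRNA synthetase subunit, and the start site shared by BORCS7 and CG13430 (351).

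Counted from the start site rather than the summit, the DREF and M1BP sequences were less frequent before members than at divergent promoters. In the 250 bp before the start site, 7.04% of 1690 member start sites held TATCGATA (exact 95% interval 5.87 to 8.37%). Divergent promoters had 15.9% (Fisher's exact test, adjusted p = 2.84e-13) and promoters without a peak 2.68% (exact adjusted p = 2.18e-14). Over 13686 promoters of all coding genes it was 7.99%, close to the members' value. GGTCACAC followed the same order, with 4.32% in members, 8.54% in divergent promoters (exact adjusted p = 6.10e-06), 0.916% without a peak (exact adjusted p = 4.39e-17) and 4.20% over all. The 250 bp before a divergent start site can include the opposite promoter.

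GAGAG showed the opposite order between members and divergent promoters. In the 250 bp before the start site 38.3% of member start sites held it, against 18.1% in divergent promoters (Fisher's exact test, adjusted p = 6.80e-32), 25.7% without a peak (exact adjusted p = 3.31e-22) and 25.7% over all coding promoters. The values were 39.2 and 34.6% in the separate lists of replicates 1 and 2. It was most frequent 51 to 100 bp before the start site, at 17.8% of member start sites, against 3.68% of divergent and 7.33% of those without a peak. In the step farthest from the start site, ending at 500 bp, the shares were 9.41% of member start sites and 4.99% of those without a peak. At the summit itself GAGAG was less frequent than in the reference, 8.44% against 12.2% (exact adjusted p = 1.65e-05), where the reference windows were centred 171 bp upstream. In stretches with GC from 38 to 42% in all groups, members had 36.4%, promoters without a peak 26.4% (exact adjusted p = 0.00126) and divergent promoters 26.7% (exact adjusted p = 0.0880, no longer past the threshold).

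**Figure D3:**
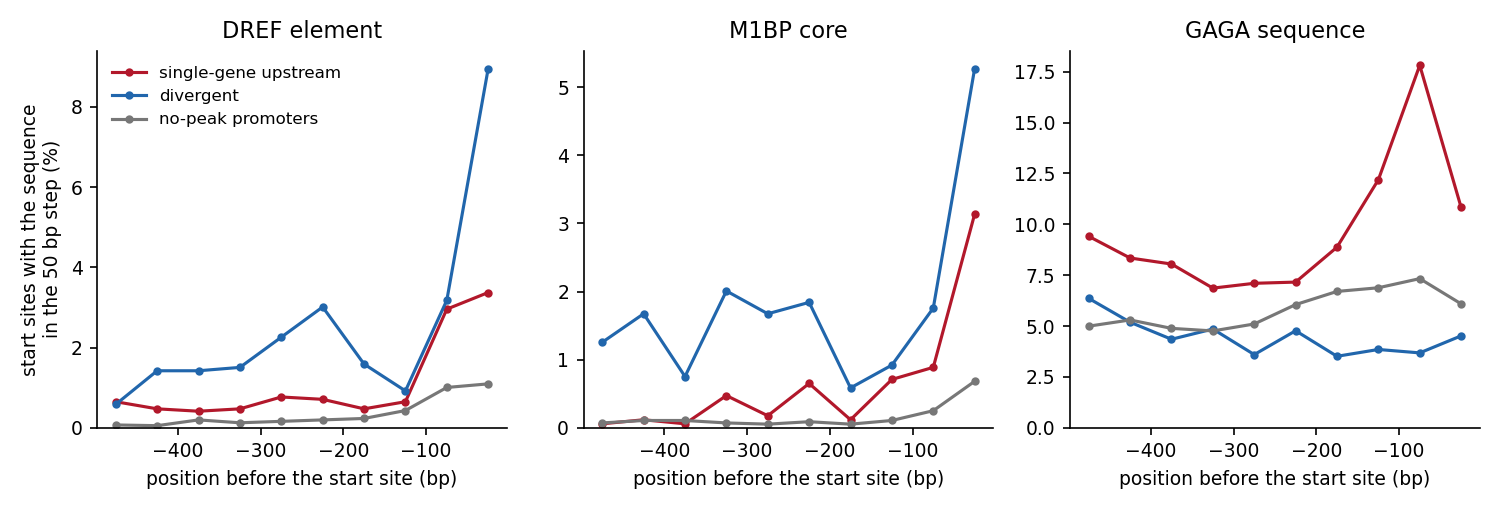
The share of start sites (%) with each sequence is plotted in steps of 50 bp against position before the start site (bp) for members, divergent promoters and promoters without a peak. Members reach 17.8% for the GAGA sequence at 51 to 100 bp, and divergent promoters have the highest share of the DREF element next to the start site, 8.95%.

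Start sites with a distant summit and those with a close one carried different sequences. Within the 100 bp before the start site, GAGAG was found at 42 of 451 start sites with a summit within 100 bp (9.31%) and at 261 of 708 with a summit over 200 bp away (36.9%). The difference passed Fisher's exact test (exact adjusted p = 4.53e-27 over 5 sequences; 13 start sites with both kinds were left out). Start sites without a peak held it in 12.1% of the same stretches, a value above that of the close summits. The initiator sequence TCAGT, beginning within 10 bp of the start site on the strand of the gene, differed in the same direction, 4.43% against 26.1% (exact adjusted p = 1.08e-23). TATAAA beginning 15 to 45 bp before the start site was found at 2.22 and 6.36% (exact adjusted p = 0.000991). TATCGATA differed the other way, 12.4% against 1.41% (exact adjusted p = 9.08e-15), as did GGTCACAC, 5.76% against 1.55% (exact adjusted p = 0.000136). All 5 differences kept their direction and passed in each replicate list, with GAGAG at 10.7 against 37.9% in replicate 1 and 9.02 against 35.7% in replicate 2. The highest peaks of replicates 1 and 2 matched 94.5 and 84.0% of members. The lists thus share most start sites and their sequence, and are not independent tests. This comparison was chosen after the positions had been seen, and its p-values treat start sites as independent.

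**Figure D4:**
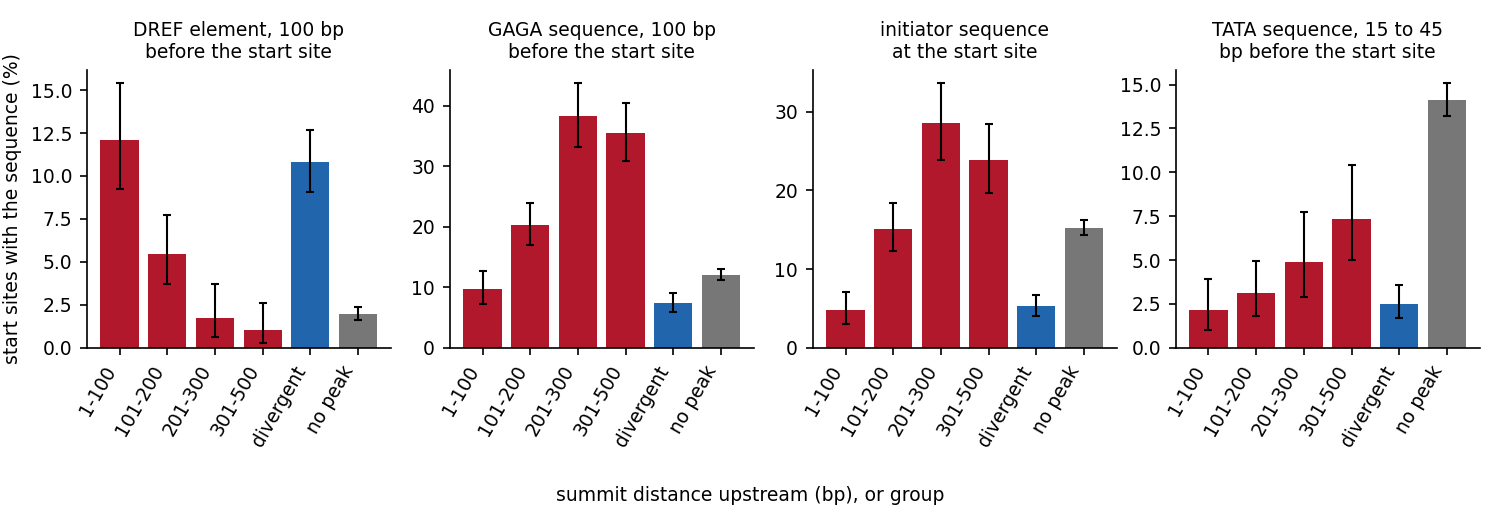
Bars show the share of start sites (%) with each of 4 sequences, for members in 4 ranges of summit distance (red), divergent promoters (blue) and promoters without a peak (grey), with exact 95% binomial intervals. The DREF element is most frequent, 12.1%, with summits within 100 bp, and the GAGA and initiator sequences are most frequent, 38.3 and 28.5%, with summits over 200 and up to 300 bp.

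Over all members, the initiator share did not pass the test against promoters without a peak, and the TATA share was below them. TCAGT was found at 16.9% of member start sites and 15.3% of those without a peak (Fisher's exact test, adjusted p = 0.117). TATAAA at 15 to 45 bp was found at 4.14% of member start sites (70 of 1690) and 14.1% without a peak (exact adjusted p = 4.87e-34). The member share was below the reference value in each distance range, from 2.16% within 100 bp to 7.36% beyond 300 bp. Reference start sites are the most upstream of their genes, whereas many members lay before internal ones, and the part of this in the differences was not tested.

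The homeodomain core TAATTA was less frequent at summits close to genes than at those farther away. It lay within 50 bp of 5.17% of summits within 100 bp, against 7.30% of same-distance windows without a peak (Fisher's exact test, adjusted p = 0.105). Over 100 and up to 200 bp the shares were 12.6 and 8.81% (exact adjusted p = 0.0101). Over 200 and up to 300 bp they were 10.4 and 8.86% (exact adjusted p = 0.421), and farther out 14.7 and 8.66% (exact adjusted p = 0.000457). The order of the 3 farther ranges differed between replicates. Replicate 1 had 5.69, 11.5, 11.1 and 13.4% from the nearest range to the farthest, and replicate 2 had 5.81, 12.3, 11.5 and 11.3%. The ranges were not tested against each other. Over all members the share was 10.7%, against 9.14% in the reference (exact adjusted p = 0.0824) and 14.2% at divergent summits (exact adjusted p = 0.0165). CG18549 (6489), CG1888 (5377) and CG1635 (4789) had the highest peaks with it. Where only windows with GC from 25 to 35% were compared, 10.9% of members and 12.6% of promoters without a peak held TAATTA, a ratio of 0.871 (exact adjusted p = 0.508).

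Members at genes with several start sites often lay before internal ones. The annotation held 19276 start sites of 13968 coding genes. The share of internal ones over all genes with several is not given here, so no excess can be read from the members' share. Of 967 members at genes with several start sites, 439 (45.4%) were nearest to the most upstream one, against 79.4% of divergent peaks (Fisher's exact test, adjusted p = 1.03e-35) and 44.2% of downstream peaks (exact adjusted p = 0.786). The member rule excludes an opposite coding start site within 500 bp, and the divergent class requires one. The contrast with divergent peaks therefore cannot be told apart from the definition of the classes. Among members, the share was 60.7% within 100 bp and 34.8% beyond 300 bp. In all, 532 summits (30.3%) lay inside the gene they were assigned to, 1053 (60.1%) were intergenic, and 161 (9.18%) fell in an annotated exon. A noncoding start site on the opposite strand was within 500 bp of 5.48% of members and 0.747% of divergent peaks (exact adjusted p = 5.29e-13). The same limit applies here, because the opposite strand at divergent peaks holds a coding start site by definition. An opposite coding start site lay just beyond the limit, up to 1000 bp from the summit, for 194 members (11.1%).

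Some genes carried several member peaks. Of the 1619 genes, 148 had at least 2 peaks and 18 at least 3. The peaks lay before 2 or more different start sites in 91 genes, and before 1 shared start site in the other 57. Each summit was counted as a peak, and the 1753 members lay in 1736 distinct intervals. Rtnl1 and spi each had 1 interval with more than 1 counted summit. Rtnl1, encoding an endoplasmic reticulum membrane protein, had 6 peaks before 5 start sites, with signals from 189 to 2653 and summits 45 to 389 bp upstream. The cAMP phosphodiesterase gene dnc had 4, from 321 to 1705, and all 4 lay inside the gene. Ptpmeg2, a tyrosine phosphatase gene, had 4, of which 3 ranked 104, 169 and 549 in the IDR list and the fourth 4499. larp (highest 3125), encoding an RNA-binding protein, the EGF receptor ligand gene spi (1619) and the NAD hydrolase gene Sarm (1374) had 3 peaks each, before 3 start sites in larp and 2 in spi and Sarm. The lowest peak of spi, at 146, had no partner in replicate 2. By chromosome, members numbered 15.03 per 100 coding genes on X and 17.5 on chromosome 4 (14 members), against 11.6 to 12.4 on the large autosomal arms. X held 330 of the 1753 members and 1436 of all 7521 IDR peaks, and chromosome 4 held 29 IDR peaks. The higher density on X is therefore not particular to the members.

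Gene groups differed in how often and where they carried a member peak. These counts are descriptions with no test. Over all 13968 protein-coding genes, 11.6% had a member peak and 16.3% a start site within 500 bp of a divergent peak. Of 93 cytoplasmic ribosomal protein genes, 31 (33.3%) had a member peak, 25 of them within 100 bp of the start site, at a median of 52 bp. Their highest signals were modest: RpL23A had 673 at 81 bp (ranks 1329 and 896 in the replicates), RpL11 555 at 143 bp and RpL24 495 at 57 bp. At divergent peaks 38 of the 93 were counted, and a gene may appear in both counts. Translation initiation factor genes had 9 of 44 (20.5%), at a median of 59 bp, led by eIF6 (3356, 105 bp), eIF3c (839, 42 bp) and eIF5B (674, 129 bp).

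Other growth and metabolic groups were near or below the 11.6% over all genes, and more of their genes were counted at divergent peaks. Over all genes the divergent share was also the higher, 16.3%. A divergent peak counted every gene on both strands within 500 bp, whereas a member peak counted only the gene or genes at its nearest start site. Mitochondrial ribosomal protein genes had 6 of 73 with a member peak (8.22%) and 37 with a divergent one. After mRpL41, the highest were mRpL19 (445) and mRpL4 (259). Aminoacyl-tRNA synthetase genes had 4 of 33 (highest AlaRS, 311) and 17 divergent, proteasome subunit genes 5 of 48 (Rpn11, 429) and 11 divergent, and vacuolar ATPase genes 3 of 33 (Vha16-1, 515) and 9 divergent. Respiratory chain and ATP synthase genes had 7 of 86 (ND-B17, 245), all within 139 bp, and 21 divergent. Among genes for promoter and insulator factors, 4 of 16 had a member peak: BEAF-32 (485), Trl (200.9, at a start site shared with CG42507), mod(mdg4) (200.9) and pita.

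Most member peaks of the muscle and neural lists had summits far upstream. The share of genes with a member peak was 11.1% among muscle identity factors, 27.8% among mesoderm and heart regulators, 18.2% among sarcomere genes and 11.8% among neuronal genes, beside 11.6% over all genes. Of 18 muscle identity transcription factor genes, 2 had one: org-1, a T-box gene (1749, 357 bp, ranks 269 and 237), and the Pax gene Poxm (1236, 454 bp, ranks 600 and 234). Mesoderm and heart regulators had 5 of 18: the NK homeobox gene tin (1281, 210 bp), the FGF signalling adaptor stumps (947, 300 bp), the FGF receptor htl (539, 349 bp), how (148, 423 bp) and Mef2 (161, 13 bp), the last without a partner in replicate 2. Sarcomere genes had 4 of 22, led by sls, a titin-like gene (1725, 271 bp), Act87E, an actin gene (751, 387 bp), and the tropomyosin gene Tm1 (683, 259 bp). The neuronal genes elav (3289, 265 bp) and scrt (859, 326 bp) were 2 of 17. In these 4 lists 0, 1, 0 and 0 highest summits lay within 100 bp, in the order given, against 25 of 31 for ribosomal protein genes. Over all members, 464 of 1753 summits lay within 100 bp, so few close summits are expected in lists this short. The median distances in the 4 lists were 405.5, 300, 265 and 295.5 bp, beside 171 bp over all members.

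**Figure D5:**
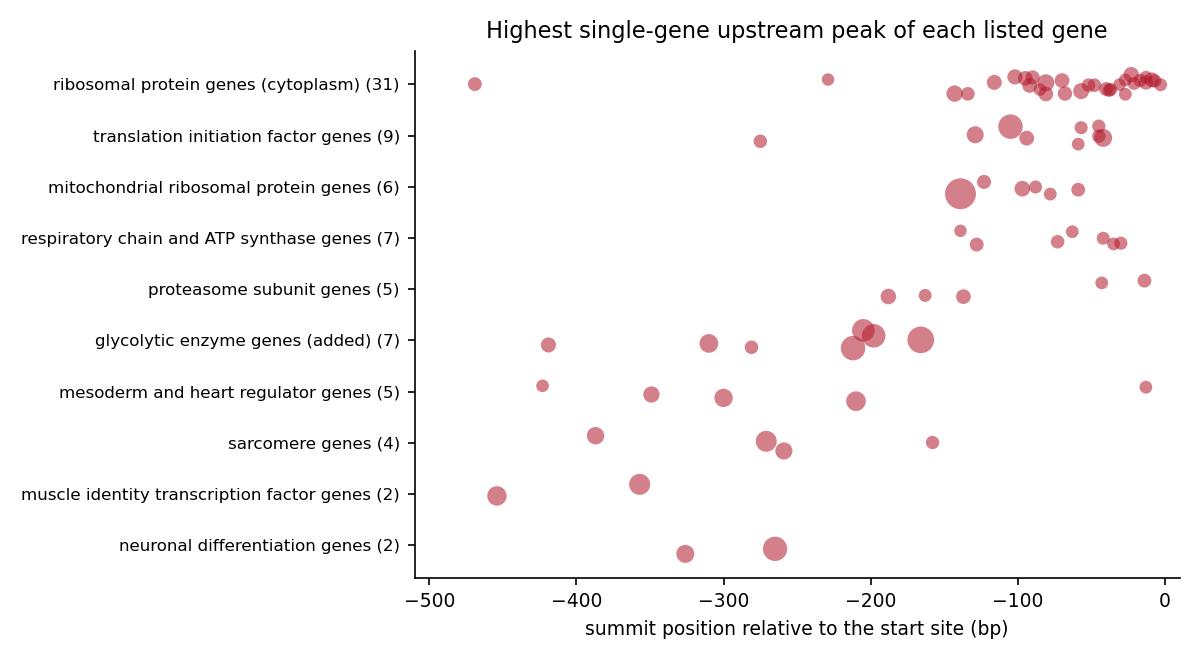
Each point is the highest member peak of 1 listed gene, placed by summit position relative to the start site (bp), with the area of the point growing with the authors' signal and the number of genes in parentheses; vertical scatter within a row carries no value. Ribosomal protein genes lie mostly within 100 bp of the start site (25 of 31), and the muscle and neuronal genes mostly beyond 200 bp.

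Sensory receptor and cuticle genes had few or no members, beside a share of 11.6% over all protein-coding genes. None of 179 chemoreceptor genes had one, which allows a share of up to 2.04% (exact 95% interval). Cuticle protein genes had 3 of 95, or 3.16% (Cpr65Ea 252, Cpr65Av 221 and Cpr67Fa1 193). Segmentation genes had 1 of 21, the Hedgehog receptor gene ptc (151, 308 bp). That was 4.76%, with an exact 95% interval of 0.120 to 23.8% that includes the share over all genes. The lms gene itself had no member peak, and no summit of the 30000 peaks called on both replicates lay within 500 bp of its start sites.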

How the data were processed

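Lms carrying GFP was precipitated from 2 biological replicates of whole embryos, 1 group per the labels. According to the deposited notes, the authors made a peak list for each replicate and for both combined, each against 1 shared control, and took the IDR list from these. Aligner, caller, IDR settings and read depth are not given in the sources used here. Depth being unknown, intervals cover the counting of peaks only. Signal, a score in the deposited lists, ranked peaks inside a list. Intervals and summits are positions on dm6 as the authors deposited them, printed from 1.

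Start sites were all transcript starts of 13968 protein-coding genes of Ensembl release 115 (FlyBase 6.54), and sequence came from the RefSeq release 6 genome. The 8 motifs were the DREF element TATCGATA, the M1BP core GGTCACAC, the E-box CAGCTG, the TATA sequence TATAAA, the GAGA sequence GAGAG, the homeodomain core TAATTA, the NK-2 type core CAAGTG and the run AAAAAA, sought on both strands within 50 bp of the summit. The reference was 1 promoter per gene, at its most upstream start site, with no summit of the pooled 30000 peaks within 500 bp. Members could lie before any start site of a gene, so the 2 sets differ in kind of start site. Fisher's exact tests were two-sided with Benjamini-Hochberg adjustment within a family and a threshold of 0.05. They treat peaks as independent and do not measure the spread between embryos. Intervals are exact binomial at 95%. Scripts were tested on simulated data with scipy 1.17.1, pandas 2.3.3 and numpy 2.4.6 under Python 3.11.15, and matplotlib 3.10.9 drew the figures.

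Named are lms, the genes of the 15 highest members, up to 6 genes with 3 or more members, up to 3 genes per list, 3 for each of the DREF, M1BP and homeodomain motifs, and the peaks nearest to each limit of the rule. E23, Mef2, how, pita and the sequences with GAGAG were chosen after their values were seen. The members, gene lists and motifs were chosen with earlier results of these data known. Alternatives covered start sites, window widths, peak lists, repeated intervals, matching distance, motif windows and base composition.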

Additional observations from a re-analysis of the deposited data

How the results depend on the processing

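The member count ranged from 1300 with 1 start site per gene to 1901 with 1000 bp windows, and was 1727 and 1847 in the lists of replicates 1 and 2 alone. The median summit distance was 155 bp with 1 start site per gene, 119 and 225 bp with windows of 250 and 1000 bp, and 166 to 173 bp in single replicates.

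Against divergent peaks, the matched share differed by -0.139 points with the full replicate lists, and the share among the highest peaks by -0.868 points with the 752 highest and by -11.1 to -3.15 points in single replicates. Against downstream peaks, where neither share passed a test, the sign turned for opposite noncoding start sites (0.679 and 0.485 points at 250 and 1000 bp) and for the most upstream start site (-1.39 to 0.0966 points in single replicates).

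Motif counts depended on the window. Against promoters without a peak, 4 motifs were more and 1 less frequent at summits. With 100 bp on each side 0 were less frequent, and with GC from 25 to 35% 0 were more and 0 less frequent. Single replicates gave 4 more and 1 to 2 less frequent. Against divergent peaks, where 0 were more and 2 less frequent, the less frequent numbered 0 with 25 bp and 4 with 100 bp on each side, and the more frequent 1 with 100 bp and 0 to 1 in single replicates. Against downstream peaks the more frequent numbered 1 with 100 bp and 1 to 2 in single replicates, against 0.

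Alternatives added after the data were seen moved these counts too. The 250 bp before the start site gave 2 less frequent against promoters without a peak, and 1 more and 6 less frequent against divergent promoters. With GC from 38 to 42% 0 were less frequent against promoters without a peak. Same-distance windows gave 2 more and 0 less frequent over 200 and up to 300 bp, and 0 less frequent farther.

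Ratios of members to the reference that turned from the side given at summits were these. With GC from 25 to 35%, TATAAA was 0.959, TAATTA 0.871, CAAGTG 1.19 and AAAAAA 0.877. In the 250 bp before the start site, TATAAA was 0.896, GAGAG 1.49 and TAATTA 0.868, and with GC from 38 to 42% they were 0.874, 1.38 and 0.788. At the same distance, TATAAA was 0.487 and TAATTA 0.709 within 100 bp. CAGCTG was 0.834, 0.690 and 0.730 in the 3 farther ranges, TATCGATA 0.831 over 200 and up to 300 bp, and GAGAG 1.10 beyond 300 bp. CAGCTG was 0.865 to 1.16 in single replicates. Against divergent peaks, CAGCTG was 0.922 with 100 bp on each side, 0.819 before the start site and 0.767 to 0.995 in single replicates. With GC from 38 to 42%, CAAGTG was 0.891 and AAAAAA 1.11. Against downstream peaks, GAGAG was 1.19 and 1.06 with 25 and 100 bp on each side, and GGTCACAC 0.901 to 1.23 in single replicates. The initiator was 0.975 to 1.13 in single replicates.

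The cause of these changes was not tested. The other differences and ratios of these comparisons kept their direction. By distance, the share of summits with TAATTA was highest beyond 300 bp in the IDR list (14.7%) and in replicate 1 (13.4%), but over 100 and up to 200 bp in replicate 2 (12.3%). The matched share cannot be recomputed in 1 replicate. No paired analysis was possible because there was 1 group. Read depth is unknown, so its effect on weak peaks cannot be stated, and the lists end at 30000 peaks.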

Other observations

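Glycolytic enzyme genes stood out among the higher members when the peaks were read by signal, and this list was added after their values had been seen, so no test was made. Of 14 such genes 7 (50%) had a member peak, at a median of 212 bp upstream, beside 11.6% over all protein-coding genes. A start site near a divergent peak was counted for 5 (35.7%), beside 16.3% over all protein-coding genes. Gapdh2 had a signal of 4875 (166 bp upstream, ranks 20 and 42 in replicates 1 and 2), Eno 3373 (212 bp, ranks 54 and 73) and Hex-A 2855 (198 bp, ranks 85 and 130). Ldh had 2417 (205 bp), Pgk 1043 (310 bp), PyK 372 (419 bp) and Tpi 216 (281 bp). The median of these 7 highest signals was 2417, against 301.3 over all genes with a member peak. None of the 7 highest summits lay within 100 bp of the start site, beside 464 of all 1753 members. None had TATCGATA within 50 bp, beside 3.31% of all members.

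Of the 1619 genes, 792 (48.9%) had another IDR summit in the gene or the 2 kb upstream. The matching share over all protein-coding genes is not given here, so this count cannot be read as a trait of member genes. In 39 members the nearest start site belonged to 2 or more coding genes, so the peak could not be assigned to 1 of them.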
